A study of Mus musculus with 10 samples.

Results

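Macrophages of the embryonic mouse back skin were taken from 10 single-cell RNA-seq libraries as the kept cells in which at least 3 of C1qa, C1qb, C1qc, Csf1r and Mrc1 were detected, with at least 5 unique molecular identifiers (UMIs) over the 5 genes and fewer than 10 UMIs over Krt5 and Krt14. A cell was kept with more than 1000 and fewer than 6000 detected genes and with under 10% of its UMIs from mitochondrially encoded genes. The rule gave 1057 macrophages among 42164 kept non-epithelial cells, which are the kept cells under the same Krt5 and Krt14 limit, and among 55482 kept cells in all. The members were chosen by the measured UMI counts of these 7 genes, whose levels inside the class are therefore given as a description only.

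The study asked what the histone acetyltransferase MOF (gene symbol Kat8) and the mitochondrial electron transport chain do in the skin epithelium. MOF cKO embryos (genotype MOFfl/fl/K14Cre) were collected at E15.5 as replicates 5 and 6 and at E16.5 as replicates 1 and 2. Control embryos were replicates 2 and 3 at E15.5 and replicates 1 and 2 at E16.5. At E17.5 there was 1 control library and 1 library of QPC cKO (QPCfl/fl/K14Cre), in which Uqcrq, the QPC subunit of respiratory complex III, was targeted. Controls were wild-type or heterozygous littermates, embryos of both sexes were used, and the mice were on a mixed C57Bl/6J and CD-1 background. The Krt14-Cre driver acts in epithelium, so that the gene was removed beside the macrophages and not by design in them. The study described MOF cKO replicate 6 as mosaic in its epidermis. Each library is treated as 1 sample, and p-values measure only the spread between these samples.

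Macrophages settle in the skin before birth, first from yolk sac and fetal liver precursors and later from blood monocytes. They clear dying cells, take up iron and lipids, line vessels and nerves, and call other leukocytes in through chemokines. Their survival depends on the receptor Csf1r and its ligands Csf1 and Il34. C1q proteins, the scavenger receptors Mrc1 and Cd163 and the hyaluronan receptor Lyve1 mark those that reside in the tissue.

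The libraries held 13609345 to 203392303 UMIs and kept 716 to 10653 cells each, and the UMIs summed over macrophages ranged from 291882 to 3955040. For E15.5 and E16.5 the study names 2 versions of the 10x Genomics kit, without saying which stage used which. It names the later version for E17.5. The 4 E16.5 libraries list 27998 genes, against 32285 at E15.5 and E17.5. Stage therefore cannot be told apart from gene list or, where it differed, chemistry. The 2 E17.5 libraries shared 1702 cell barcodes, 20.7% of the smaller one, against at most 0.746% in the other 44 pairs of libraries. Only 7 of the shared barcodes passed the limits on cells in both libraries, and 1 macrophage carried a shared barcode. Kat8 was at 11.8 and 5.24 CPM (UMI counts of a gene scaled to a total of 1000000) in the macrophages of the E15.5 controls and at 3.96 and 4.80 CPM in MOF cKO (log2 fold change -0.98 ± 0.43, SE, edgeR adjusted p = 0.352). Kat8 in epithelial cells was at 13.02 and 13.97 CPM in the E15.5 controls against 13.04 and 10.04 CPM in MOF cKO, and at 17.6 and 14.8 CPM in the E16.5 controls against 8.66 and 3.75 CPM, the last from 5 and 3 UMIs. The E16.5 macrophages held 10.3 and 13.4 CPM in the controls and 4.35 and 5.44 CPM in MOF cKO. In the other non-epithelial cells, which the driver should spare, Kat8 was lower in each mutant library than in both controls of its stage, at 9.74 and 10.2 CPM against 6.71 and 6.11 CPM at E15.5 and at 10.8 and 8.43 CPM against 2.71 and 5.40 CPM at E16.5. These counts are of transcript 3′ ends, and whether they lie in the deleted part of Kat8 is not given, so they do not check the deletion.

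The members carried the marks of macrophages beyond the genes that chose them. A further 9 identity genes were looked at, among them Adgre1 (the F4/80 antigen), Cd68 (a lysosomal glycoprotein), Fcgr1 and Fcer1g (parts of Fc receptors), Mertk (a receptor for apoptotic cells) and Aif1. Each was higher in macrophages than in the other non-epithelial cells in 10 of 10 libraries. Adgre1 ranged from 173 to 571 CPM over the libraries in macrophages and from 0.543 to 8.95 CPM in the other non-epithelial cells. Tyrobp, the adaptor of many myeloid receptors, ranged from 1441 to 2811 CPM against 30.6 to 268 CPM. These figures describe the class and are no test of it.

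Genes of resident macrophages and the rule's own markers led the list of genes higher in the class. By the ratio of mean CPM to that in the other non-epithelial cells, the first 20 genes opened with Mrc1, Pf4, Fcrls, C1qa, C1qc, C1qb, Fcna, Folr2, Ms4a7, Ccl24, Ccl12, F13a1 and Lyve1 in this order. Mrc1, C1qa, C1qb and C1qc chose the cells, while Pf4, Folr2, Ccl24, F13a1, Lyve1 and Stab1 are on the list of resident and perivascular genes. Pf4, the platelet factor 4 chemokine, had a mean of 5593 CPM in macrophages and 5.08 CPM in the other cells. Folr2, a folate receptor of resident macrophages, had means of 197 and 0.422 CPM. The iron exporter Slc40a1 and the fractalkine receptor Cx3cr1 were also among the 20.

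The marker UMIs that chose the members are given as a description. All 5 markers were detected in 907 of the 1057 macrophages (85.8%), and the median was 121 marker UMIs per cell. Only 21 macrophages (1.99%) had fewer than 10 marker UMIs, and the lowest member of a library had between 5 and 28. Just outside the rule, between 6 and 93 non-epithelial cells per library had at least 2 markers detected, with the most in the E16.5 MOF cKO libraries (45 and 93). The highest marker total among these outside cells was between 2 and 33 UMIs over the libraries, and it reached that of the lowest member in 7 of the 10 libraries.

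Markers of other cells were present at low levels, with exceptions. Of 3 Langerhans cell markers, 2 were at 0 in the macrophages of every library, and 5 to 8 of 9 neutrophil markers were at 0. The summed level of 6 fibroblast markers was 309 to 4092 CPM in macrophages and 19395 to 51083 CPM in the other non-epithelial cells. The highest of these sums was in E16.5 MOF cKO replicate 2, where 36 of 71 macrophages (50.7%) also met a fibroblast rule (at least 3 of the 6 markers and at least 20 UMIs over them), against 7 of 37 in MOF cKO replicate 1 and 0 and 3 in the E16.5 controls. Erythroid markers summed to 33496 CPM in the macrophages of E15.5 control replicate 2 and to 25539 CPM in the other non-epithelial cells there. Krt14, limited by the rule, was at 57.8 and 54.4 CPM in the E15.5 control macrophages, close to the 53.3 and 58.3 CPM of the other non-epithelial cells.

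The first question was whether the share of macrophages differed in mutant skin. At E15.5 macrophages were 3.09% (178 of 5761, Clopper-Pearson 95% interval 2.66 to 3.57) and 1.85% (115 of 6221, 1.53 to 2.21) of control non-epithelial cells. They were 2.54% (232 of 9118, 2.23 to 2.89) and 2.63% (237 of 9005, 2.31 to 2.98) in MOF cKO. Both mutant shares lay between those of the controls. The means were 2.47% ± 0.878 and 2.59% ± 0.0618 (SD, n = 2 each), a difference of 0.119 points with an exact two-sided permutation p of 1, where the smallest p of the design is 0.333. Without control replicate 3 the difference was -0.502 points, and without control replicate 2 it was 0.740 points.

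At E16.5 both mutant libraries were above both controls. Macrophages were 2.97% (26 of 874, 1.95 to 4.33) and 2.17% (42 of 1935, 1.57 to 2.92) of control non-epithelial cells and 5.39% (37 of 686, 3.83 to 7.36) and 5.36% (71 of 1324, 4.21 to 6.72) in MOF cKO. The difference was 2.81 points, with the smallest p that an exact permutation of 2 against 2 can give, 0.333. Without the macrophages that also met the fibroblast rule it was 1.01 points (exact permutation p = 0.667), and the groups then overlapped. Averaged over the stages, the share was 1.46 points higher in MOF cKO (exact permutation of labels within stage, p = 0.167, smallest possible 0.0556). As a share of all kept cells the average difference was 1.88 points (exact permutation p = 0.0556), with each mutant library above both controls of its stage. That denominator itself differed between the groups, since non-epithelial cells were 5761 of 8396 and 6221 of 9117 kept cells in the E15.5 controls against 9118 of 10179 and 9005 of 10653 in MOF cKO, and the E15.5 difference was 0.561 points on it.

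Mast cells, another class of resident myeloid cells of the dermis, gave a second yardstick. Macrophages per mast cell stood at 0.501 and 0.353 in E15.5 controls, whereas E15.5 mutants had 0.748 and 0.629. Later, control libraries gave 0.565 and 0.689, whereas E16.5 mutants gave 1.19 and 1.16. Each mutant library was above both controls of its stage, and the difference over both stages was 0.407 (exact permutation p = 0.0556, the smallest possible). Without fibroblast-rule cells the E16.5 groups overlapped, with 26 and 39 control macrophages beside 46 and 61 mast cells and 30 and 35 mutant macrophages beside 31 and 61 mast cells. Mast cells themselves were 5.70% of control and 3.79% of MOF cKO non-epithelial cells at E15.5 and 4.21% and 4.56% at E16.5.

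At E17.5 the share was 2.41% (55 of 2284, 1.82 to 3.12) in the control and 1.29% (64 of 4956, 0.996 to 1.65) in QPC cKO, with 1 library each and no test. The intervals on the 2 shares did not overlap. As a share of all kept cells the values were 1.03% and 1.05%, so with the keratin limit on members the order depended on the denominator. With epithelial cells set aside by 6 keratinocyte genes, 19 of 644 control cells (2.95%) and 51 of 4238 QPC cKO cells (1.20%) were macrophages. The keratin limit removed 38 control and 10 QPC cKO cells that met the rest of the rule, and without it macrophages were 1.74% (1.40 to 2.12) and 1.21% (0.951 to 1.52) of all kept cells. All these intervals cover counting error only. Macrophages per mast cell had the reverse order of the share of non-epithelial cells, at 0.390 in the control and 1.02 in QPC cKO. Mast cells were 6.17% of non-epithelial cells in the control and 1.27% in QPC cKO.

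**Figure D1:**
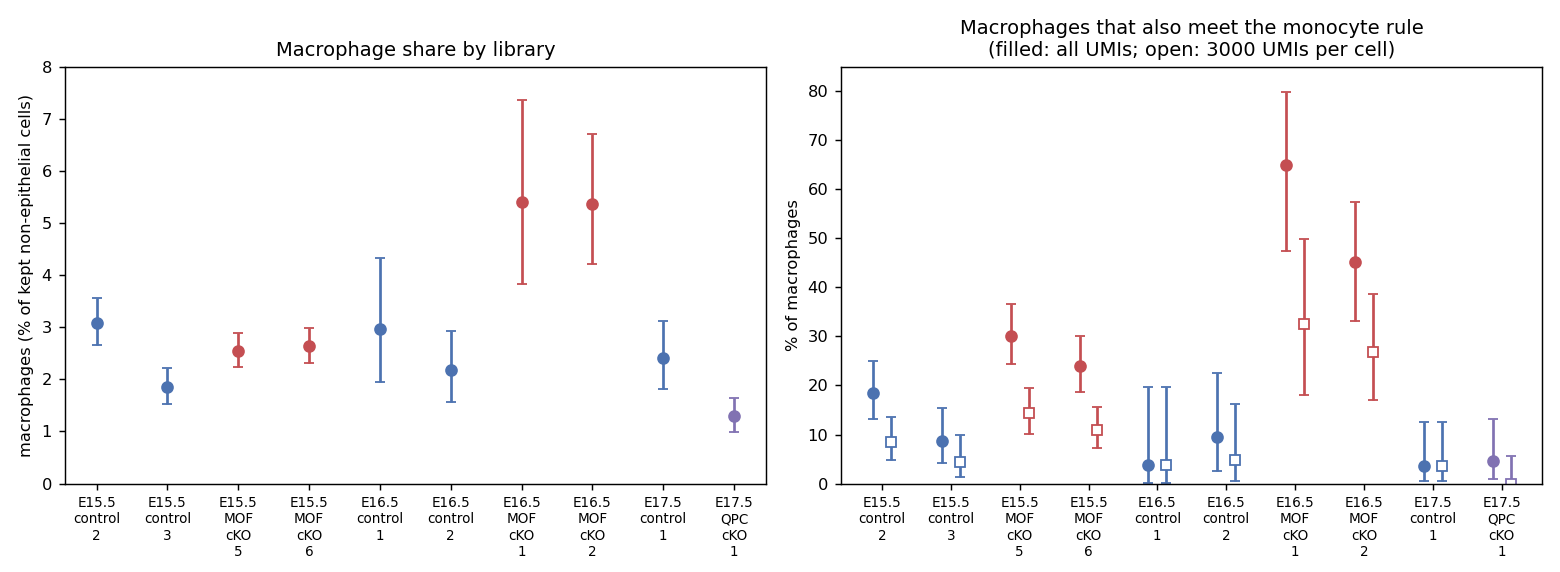
Left, macrophages as a percentage of kept non-epithelial cells in each of the 10 libraries. Right, the percentage of macrophages that also met the monocyte rule, counted on all UMIs (filled) and on 3000 UMIs per cell (open). Bars are Clopper-Pearson 95% intervals. Both E16.5 MOF cKO libraries sit above 5% on the left, and at E15.5 and E16.5 the MOF cKO libraries sit above the controls on the right, up to 64.9%.

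The second question was how many of the macrophages also carried monocyte genes. Monocytes circulate in blood and mature into macrophages after entering a tissue, and a cell was said to meet the monocyte rule when it had at least 3 of Ly6c2, Ccr2, Plac8, Chil3, Hp and Lyz2 detected and at least 5 UMIs over them. At E15.5 this held for 18.5% and 8.70% of control macrophages and for 30.2% and 24.1% of MOF cKO macrophages. At E16.5 it held for 3.85% (1 of 26) and 9.52% (4 of 42) of control macrophages and for 64.9% (24 of 37) and 45.1% (32 of 71) of MOF cKO macrophages. Every mutant library exceeded both controls of its stage, by 30.9 points on average (exact permutation within stage, p = 0.0556, the smallest possible). At E17.5, 2 of 55 control and 3 of 64 QPC cKO macrophages met the rule.

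The order of the groups was the same at equal depth and with Lyz2 left out. With each cell thinned to 3000 UMIs the shares were 8.47%, 4.39%, 14.3% and 10.97% at E15.5 and 3.85%, 4.76%, 32.4% and 26.8% at E16.5, controls first. The mean difference was 15.7 points when thinned and 20.3 points with Lyz2 left out of the rule, with an exact permutation p of 0.0556 for each. Cells that met the monocyte rule but not the macrophage rule were 0.712% and 0.514% of non-epithelial cells in the E15.5 controls against 1.22% and 1.17% in MOF cKO, and 0.686% and 0.775% against 5.39% and 1.74% at E16.5. Per macrophage they stood at 0.230 and 0.278 against 0.478 and 0.443 at E15.5 and at 0.231 and 0.357 against 1 and 0.324 at E16.5, where the groups overlapped (exact permutation over both stages, p = 0.111).

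The macrophages that met the monocyte rule differed from the remaining ones in the same libraries. There were 6 libraries with at least 10 cells of each kind. Lyve1, Cd163, F13a1, Folr2, Pf4, Gas6 and Adgre1 were lower in the cells that met the rule in 6 of 6 libraries. C1qa and Mrc1 were lower there too, but they chose the members and are given as a description only. Lyve1 was at 132 CPM against 985 CPM in E15.5 control replicate 2 and at 13.7 CPM against 882 CPM in E15.5 MOF cKO replicate 6. Isg15, Irf7, Lgals3, Ly6e and Cd74 were higher in them in 6 of 6. Cd74, the invariant chain of MHC class II, was at 2320 CPM against 274 CPM in E16.5 MOF cKO replicate 1. Marco and Saa3 were higher in them in only 2 of 6.

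**Figure D2:**
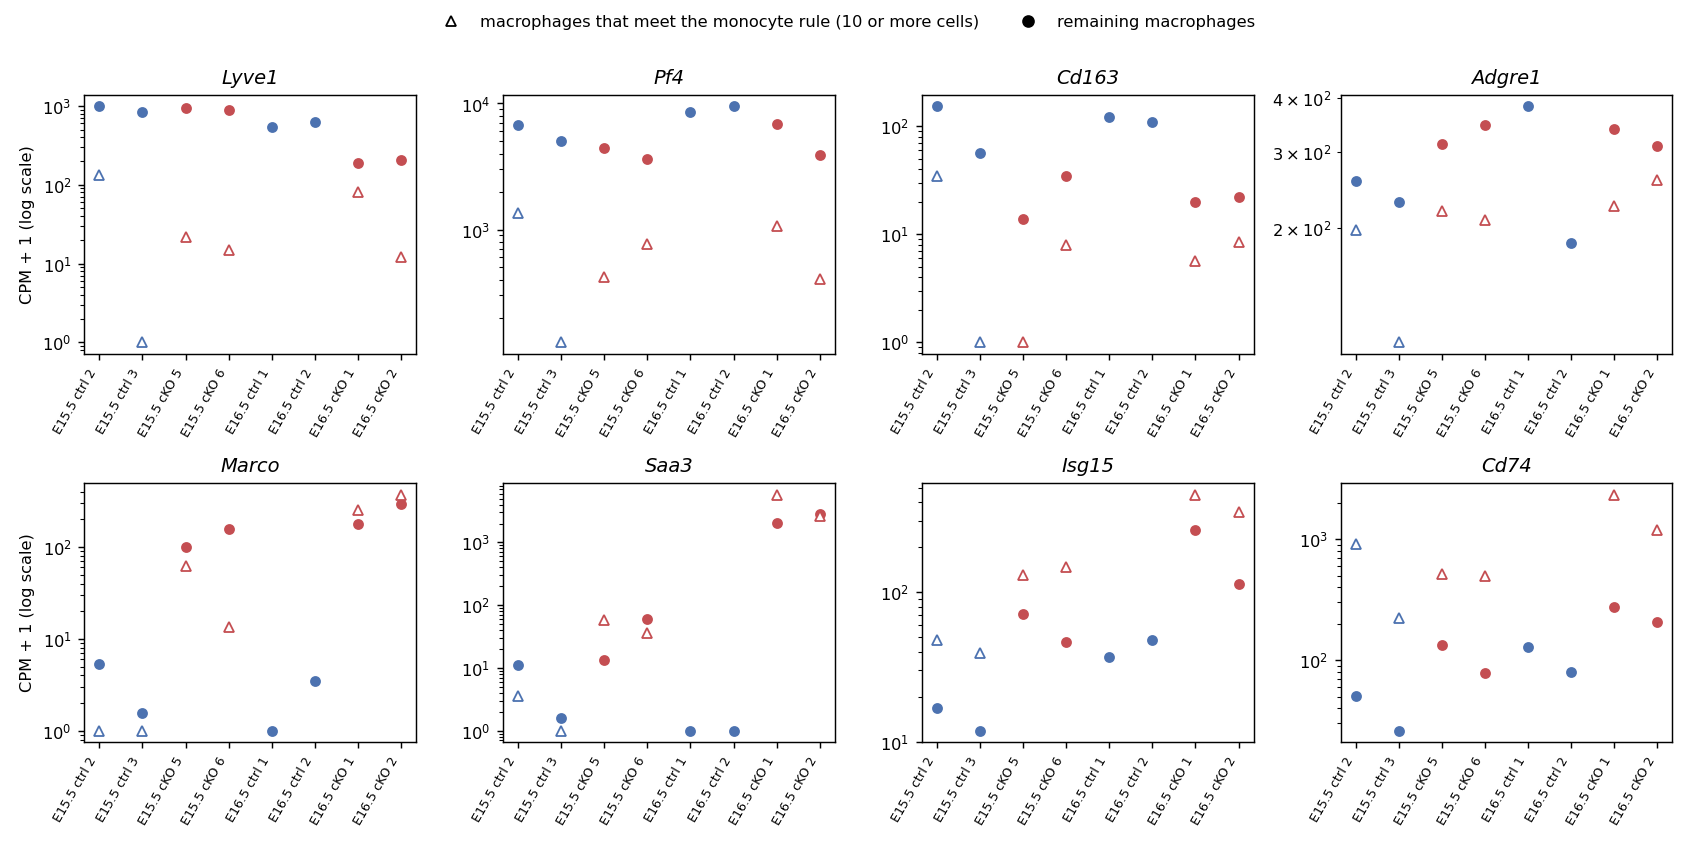
CPM plus 1 (log scale) of 8 genes in the macrophages that met the monocyte rule (open triangles) and in the remaining macrophages (filled circles) of the E15.5 and E16.5 libraries, controls in blue and MOF cKO in red. Triangles are drawn for libraries with at least 10 such cells. Lyve1, Pf4, Cd163 and Adgre1 lie lower and Isg15 and Cd74 higher in the triangles, while the remaining E16.5 MOF cKO macrophages reach 2068 and 2784 CPM of Saa3 against 0 in the controls.

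The third question was which genes changed in macrophages of MOF cKO skin. UMI counts were summed over the macrophages of a library and tested with the edgeR quasi-likelihood test at a Benjamini-Hochberg adjusted p under 0.05, and CPM are given per library. At E15.5, 165 of 10457 genes passed (1.58% of those tested), 123 higher (1.18%) and 42 lower (0.402%) in MOF cKO. At E16.5, 59 of 5856 passed (1.01%), 53 higher (0.905%) and 6 lower (0.102%). The median log2 fold change of all tested genes was -0.00 and 0.01. Keratins of epithelial cells were among the lower calls, Krt14 at E15.5 and Krt5 and Krt15 at E16.5. The rule limits Krt5 and Krt14, so their calls are no test and their levels are a description only. Krt5 went from 95.9 and 98.6 CPM to 27.5 and 17.1 CPM in the E16.5 macrophages, and from 159 and 85.7 CPM to 24.2 and 20.4 CPM in the other non-epithelial cells. Of the genes called, 20 at E15.5 and 11 at E16.5 were at lower mean levels in macrophages than in all other kept cells, and the part of RNA from other cells was not tested. In these sums alone, fewer cells with a transcript and less transcript per cell cannot be told apart.

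The calls at the 2 stages were shared in part. Of the 5791 genes tested at both stages, 31 passed at both. That is 21.5% of the 144 E15.5 calls and 54.4% of the 57 E16.5 calls among these genes. All 31 moved the same way, as did 59.5% of all genes tested at both stages. Besides the genes described below the 31 held the osteoclast phosphatase Acp5, the metalloproteinase Mmp14, the nucleic acid sensor Zbp1 and the cytoskeletal gene Vim. No gene passed the test of a difference in effect between the stages (0 of 9710 by edgeR, 903 at an unadjusted p under 0.05, 26 by DESeq2).

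Single libraries and cell limits moved these counts. At E16.5 no gene passed without MOF cKO replicate 2 (0 of 5989 by edgeR, with 536 at an unadjusted p under 0.05), so each E16.5 call below was lost without it. The count was 373 without control replicate 1, 178 without control replicate 2 and 126 without MOF cKO replicate 1, and DESeq2 called 103. At E15.5 the count was 419, 456, 189 and 419 without control replicates 2 and 3 and MOF cKO replicates 5 and 6 in turn. With a mitochondrial limit of 5% it was 51 at E15.5, and 40 of 62 named genes were no longer called. When the macrophages that met the monocyte rule were left out, 150 genes passed at E15.5 and 13 at E16.5. Without the fibroblast-rule cells 152 and 212 passed, and with replicate number as a block 132 passed at E16.5.

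Several genes of resident and perivascular macrophages fell, where 0.402% of all tested genes were called lower at E15.5 and 0.102% at E16.5. Of 19 on this list, 16 were tested at E15.5, where 5 were lower and none higher (median log2 fold change -0.31), and 15 at E16.5, where 2 were lower and none higher (median -0.94). Cd163, the scavenger receptor for haemoglobin bound to haptoglobin (ENSMUSG00000008845, chr6:124304656-124330527, plus strand, GRCm38), was at 133 and 50.8 CPM in the E15.5 controls and at 9.23 and 27.8 CPM in MOF cKO. The E16.5 controls held 116 and 98.6 CPM of Cd163, against 10.1 and 15.6 CPM in the mutants. No mutant library reached a control of its stage. Groups were apart in 45.4% of all genes tested at E15.5 and 45.8% at E16.5. Cd163 fell by 2.32 ± 0.46 (log2, SE, edgeR adjusted p = 0.0409) at E15.5 and by 2.92 ± 0.33 (edgeR adjusted p = 0.0133) at E16.5, and it passed at both stages also without the monocyte-rule cells (-2.14 and -2.41). It did not pass by DESeq2 at E15.5 (adjusted p = 0.45).

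Lyve1 (chr7:110850607-110863239, minus strand) was called at the later stage only. It was at 851 and 777 CPM in the E15.5 controls and at 694 and 690.0 CPM in MOF cKO (log2 -0.22 ± 0.10, edgeR adjusted p = 0.386). The E16.5 controls held 517 and 574 CPM of Lyve1 and MOF cKO 122 and 124 CPM, a fall of 2.09 ± 0.26 (log2, edgeR adjusted p = 0.0165). The groups did not overlap at either stage, as in 45.4% and 45.8% of all genes tested at E15.5 and E16.5. The difference between the stages did not pass its test. Without the monocyte-rule cells the E16.5 change of Lyve1 was -1.53 and did not pass (adjusted p = 0.11).

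Other resident genes passed at E15.5. Pf4 went from 5899 and 4614 CPM to 3331 and 3005 CPM (log2 -0.72 ± 0.13, edgeR adjusted p = 0.0238), and was not called without the monocyte-rule cells (-0.53, adjusted p = 0.12). F13a1, a coagulation factor subunit made by resident macrophages, went from 2691 and 2658 CPM to 1524 and 1774 CPM (-0.68 ± 0.10, adjusted p = 0.0103). Gas6, the ligand that bridges dying cells to Mertk and Axl, went from 469 and 474 CPM to 249 and 284 CPM (-0.81 ± 0.11, adjusted p = 0.00796). None of these genes nor the eotaxin Ccl24 passed at E16.5. Their groups did not overlap there either, as in 45.8% of all tested genes. Pf4 was then at 8157 and 8593 CPM against 3324 and 2429 CPM (-1.48 ± 0.26, adjusted p = 0.0519). Folr2 did not follow, with 146 and 142 CPM against 155 and 163 CPM at E15.5 and overlapping groups at E16.5.

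Further falls lay outside the lists. Ltc4s, which makes leukotriene C4, fell by 1.16 ± 0.14 (log2, edgeR adjusted p = 0.00468) at E15.5, from 105 and 103 CPM to 41.9 and 49.8 CPM. Bin1, a membrane-bending protein, fell at both stages, from 369.7 and 309 CPM to 198 and 228 CPM at E15.5 and from 819 and 580.3 CPM to 183 and 239 CPM at E16.5, but passed at neither without the monocyte-rule cells (adjusted p = 0.0935 and 0.200). The organic anion transporter Slco2b1 went from 58.2 and 59.7 CPM to 24.8 and 32.6 CPM at E15.5 (-1.02 ± 0.17, adjusted p = 0.0193). Mrc1, which the rule used, was at 2251 and 2757 CPM in the E15.5 controls against 1652 and 1784 CPM in MOF cKO and at 1158 and 937 CPM against 474 and 428 CPM at E16.5. C1qa, C1qb and C1qc overlapped between the groups at both stages.

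Ifi202b, an interferon-inducible gene of the Ifi200 family of close paralogs, had the largest estimated fall of the E15.5 calls. It was at 195 and 90.0 CPM in the E15.5 control macrophages and at 1.32 and 0.506 CPM in MOF cKO (log2 -7.24 ± 0.51, edgeR adjusted p = 0.000106). Epithelial cells of the same libraries went the other way, from 6.61 and 28.4 CPM to 201 and 63.0 CPM of Ifi202b. At E16.5 it had no UMI in the macrophages of any of the 4 libraries, controls included. Those libraries were counted with a different gene list (27998 genes against 32285 at E15.5), and its part in this absence was not tested. Reads that paralogs share could move these values. Mouse strains are known to differ in Ifi202b, and the alleles of these embryos of mixed background were not tested.

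**Figure D3:**
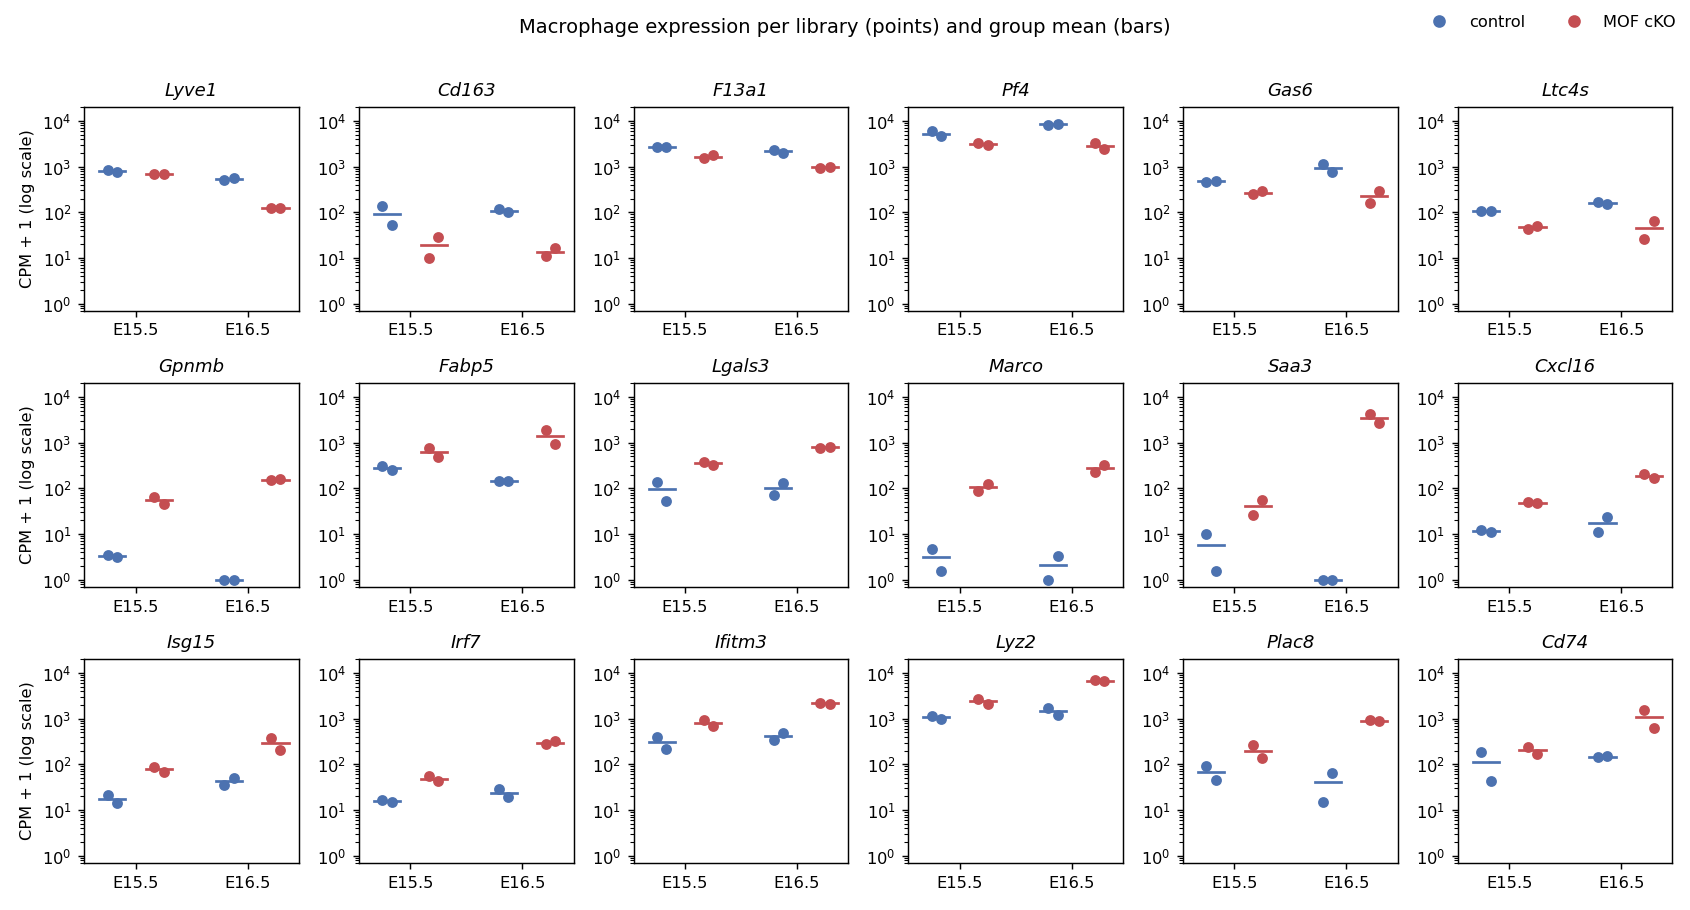
Macrophage expression of 18 genes in each library (points, CPM plus 1 on a log scale) with the group mean (bars), controls in blue and MOF cKO in red, at E15.5 and E16.5. The first row holds resident genes and Ltc4s, such as Cd163 from 116 and 98.6 down to 10.1 and 15.6 CPM at E16.5. The rows below hold genes called higher in MOF cKO, such as Saa3 from 0 in both E16.5 controls to 4315 and 2715 CPM. Of these, Cd74 passed at E16.5 only.

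Some genes of lipid-associated macrophages, which handle lipids and cell debris, rose. Of all tested genes, 1.18% were called higher at E15.5 and 0.905% at E16.5. Of 14 on the list 13 were tested at E15.5, with 7 higher and none lower (median log2 fold change 1.19), and 11 at E16.5, with 3 higher and none lower (median 0.56). The change was positive in 10 of the 13 and in 8 of the 11. Detection of the receptor Trem2 overlapped between the groups, with a UMI in 60.1% and 45.2% of E15.5 control and 29.3% and 58.6% of MOF cKO macrophages. Gpnmb, a glycoprotein of lysosome-rich macrophages (ENSMUSG00000029816, chr6:49036546-49070929, plus strand), was at 2.44 and 2.09 CPM in the E15.5 controls and at 64.9 and 44.8 CPM in MOF cKO (log2 4.57 ± 0.34, edgeR adjusted p = 0.000116). Neither E16.5 control held a Gpnmb UMI, and MOF cKO held 148 and 156 CPM, a mean 37.4-fold above 3 counts over the control group. Such a fold covers the counting error of UMIs only, and not that few cells may hold most of them. The E16.5 UMIs of Gpnmb were mostly in the monocyte-rule cells, at 236 and 308 CPM, against 7.52 and 48.0 CPM in the remaining mutant macrophages. The order was the reverse in the E15.5 mutants, at 31.2 and 35.5 CPM against 77.9 and 47.4 CPM. A Gpnmb UMI was found in 19 and 24 mutant macrophages at E15.5 and in 6 and 16 at E16.5, counts that depend on the depth of each cell.

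Spp1, the secreted matrix protein osteopontin, was at 0 and 5.24 CPM in the E15.5 controls and at 342 and 91.8 CPM in MOF cKO (log2 6.55 ± 0.85, edgeR adjusted p = 0.00552), from 18 and 17 cells. Lgals3, which encodes galectin-3, went from 137 and 50.8 CPM to 378 and 322 CPM at E15.5 (1.88 ± 0.32, adjusted p = 0.0201) and from 71.9 and 128 CPM to 767 and 795 CPM at E16.5 (2.98 ± 0.36, adjusted p = 0.0155). Fabp5, a fatty acid binding protein, went from 307 and 247 CPM to 761 and 492 CPM at E15.5 (1.19 ± 0.20, adjusted p = 0.0188) and from 144 and 141 CPM to 1884 and 915 CPM at E16.5 (3.35 ± 0.40, adjusted p = 0.0148). The groups did not overlap in any of these, as in 45.4% and 45.8% of all genes tested at E15.5 and E16.5. Without the monocyte-rule cells the E16.5 calls of Fabp5 and Lgals3 were lost (1.80, adjusted p = 0.105, and 3.18, adjusted p = 0.0619), with Fabp5 at 132 and 136 CPM against 564 and 346 CPM. Cd9, a tetraspanin, the sterol exporter Abcg1 and its regulator Nr1h3 passed at E15.5 only. Fabp5 and Lgals3 were also higher in the epithelial cells of the E16.5 mutants, Fabp5 at 14242 and 13979 CPM against 1611 and 1787 CPM and Lgals3 at 929.6 and 927 CPM against 219.5 and 166 CPM, and the part of epithelial RNA in the macrophage values was not tested.

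Some scavenging genes passed, where 1.58% of all tested genes passed at E15.5 and 1.01% at E16.5. Of 18 genes for efferocytosis, the uptake of dying cells, and for scavenging, 17 were tested at E15.5, where Marco and the phagocyte GTPase Rac2 were higher and Gas6 lower (median 0.10), and 16 at E16.5, where Marco alone passed (median 0.38). Marco, a scavenger receptor for bacteria and particles (ENSMUSG00000026390, chr1:120474538-120505024, minus strand), was at 3.66 and 0.524 CPM in the E15.5 controls and at 88.1 and 124 CPM in MOF cKO. At E16.5 Marco was at 0 and 2.24 CPM against 225 and 326 CPM. It rose by 5.53 ± 0.37 (log2, edgeR adjusted p = 0.000106) at E15.5. It passed at E16.5 too (edgeR adjusted p = 0.00738), where the controls held 1 Marco UMI between them, so that no fold is given, and at both stages without the monocyte-rule cells. A Marco UMI was found in 35 and 31 mutant macrophages at E15.5 and in 12 and 24 at E16.5.

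Saa3, an acute phase apolipoprotein, reached its high levels in the E16.5 mutants. It had no UMI in the 2 E16.5 control libraries and was at 4315 and 2715 CPM in MOF cKO, with a UMI in 28 of 37 and 37 of 71 macrophages. The mutant mean was 865-fold above 3 counts over the control group, which covers counting error only (edgeR adjusted p = 0.00278). The other non-epithelial cells held 0.115 and 0.105 CPM of Saa3 in the controls and 227 and 6.997 CPM in MOF cKO. At E15.5 Saa3 was at 8.95 and 0.524 CPM against 25.1 and 54.4 CPM (2.94 ± 0.58, adjusted p = 0.0405), where 1 cell gave 52.6% and 64.7% of the mutant UMIs and where the call was lost by DESeq2 (adjusted p = 0.78).

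Several genes of the interferon response rose. Interferons are cytokines of antiviral defence that switch these genes on through a promoter element, the interferon-stimulated response element. Of 16 genes 14 were tested at E15.5, where 8 were higher and none lower (median log2 fold change 1.34), and 13 at E16.5, where 4 were higher and none lower (median 1.89). Of all tested genes, 1.18% were called higher at E15.5 and 0.905% at E16.5. Isg15, a ubiquitin-like protein, was at 20.7 and 13.1 CPM in the E15.5 controls and at 86.5 and 68.0 CPM in MOF cKO (2.18 ± 0.23, edgeR adjusted p = 0.00242). At E16.5 Isg15 was at 34.3 and 49.3 CPM against 375 and 208 CPM (2.81 ± 0.41, edgeR adjusted p = 0.0292). The groups did not overlap at either stage, as in 45.4% and 45.8% of all genes tested at E15.5 and E16.5. The E16.5 call was lost without the monocyte-rule cells (2.11, adjusted p = 0.20).

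The element was searched for in the promoters of the list, since it is the sequence through which these genes are known to respond. RefSeq promoters (GRCm38.p6, 250 bases before to 50 bases after the start site) were found for 13 of the 16 genes, and the letters GAAANNGAAA occurred on either strand in 8 of them (61.5%), against 3.99% of the promoters of 27025 genes. Windows of 30 bases are shown for 4 genes that passed the test, 5′ to 3′ on the strand of the gene, with 1 match per gene, or its reverse complement, in capitals. In Isg15 and Bst2 the match overlapped others. A match describes these letters only, and Irf7 and Oasl2 rose with no match in this window.
Isg15, chr4:156200871-156200900, minus strand: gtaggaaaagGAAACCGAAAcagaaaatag
Bst2, chr8:71537577-71537606, minus strand: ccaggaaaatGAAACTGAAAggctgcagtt
Ifit3, chr19:34583363-34583392, plus strand: cagtggtaagTTTCACTTTCctcttctggt
Gbp2, chr3:142620594-142620623, plus strand: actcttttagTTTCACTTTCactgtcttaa

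Irf7, the transcription factor that amplifies the interferon response, went from 15.9 and 14.1 CPM to 54.3 and 41.2 CPM at E15.5 (1.68 ± 0.22, edgeR adjusted p = 0.00582) and from 27.4 and 17.9 CPM to 274 and 324 CPM at E16.5 (3.82 ± 0.32, adjusted p = 0.00738). Ifitm3, which blocks virus entry, went from 390.4 and 219 CPM to 936 and 698 CPM and from 343 and 473 CPM to 2245 and 2067 CPM. Irf7 and Ifitm3 passed at both stages without the monocyte-rule cells, and by DESeq2 Ifitm3 did not pass at E15.5 (adjusted p = 0.138). Bst2, a membrane tether of viruses, passed at both stages, though not at E16.5 without the monocyte-rule cells (1.73, adjusted p = 0.0714), and Oasl2, Ifit3 and the GTPase Gbp2 were among those that passed at E15.5. Cxcl10 was not called, with overlapping groups at E15.5 and 48.0 and 38.1 CPM in the E16.5 controls against 20.3 and 6.998 CPM in MOF cKO (adjusted p = 0.191). Interferon genes were also higher in the other non-epithelial cells of the E16.5 mutants, with 5.99 and 5.21 CPM of Isg15 against 185 and 101 CPM and 239 and 293 CPM of Ifitm3 against 1744 and 1148 CPM, and their part in the macrophage values was not tested.

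Chemokines moved in both directions, where 1.58% of all tested genes were called at E15.5 and 1.01% at E16.5. Of 17 on the list 15 were tested at E15.5, where Ccl5 and Cxcl16 were higher and Ccl24 lower, and 14 at E16.5, where Ccl5, Ccl8, Ccl9 and Cxcl16 were higher (median log2 fold changes 0.11 and -0.53). Cxcl16, a membrane-bound chemokine and lipid scavenger, was at 10.98 and 9.95 CPM in the E15.5 controls and at 48.0 and 46.3 CPM in MOF cKO (2.17 ± 0.20, edgeR adjusted p = 0.000971), and at 10.3 and 22.4 CPM against 203 and 166 CPM at E16.5 (3.44 ± 0.39, adjusted p = 0.0133). Epithelial Cxcl16 was also higher at E16.5, at 121 and 70.0 CPM against 6.49 and 6.203 CPM. Ccl5, which attracts T cells, had no UMI in the E16.5 controls and was at 296 and 135 CPM in MOF cKO. The mutant mean was 53.0-fold above 3 counts over the control group. A Ccl5 UMI was found in only 3 and 8 mutant cells, so that this fold is no lower bound. The mutant macrophages outside the monocyte rule held 0 and 52.0 CPM of Ccl5. Without the monocyte-rule cells the E16.5 call of Cxcl16 was lost (2.95, adjusted p = 0.0619). The monocyte attractant Ccl2 was at 1114 and 1019.8 CPM against 1006 and 825 CPM at E15.5 and did not pass at either stage (adjusted p = 0.505 and 0.294).

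A few monocyte markers and the myeloid gene Lyz2 rose in the macrophages as well. Of all tested genes, 1.18% were called higher at E15.5 and 0.905% at E16.5. Of 10 monocyte markers 9 were tested at each stage, with Plac8 higher at E15.5 and Plac8, Ly6c2 and Thbs1 higher at E16.5 (medians 0.95 and 2.30). Plac8 went from 89.1 and 45.5 CPM to 257 and 134 CPM at E15.5 (1.53 ± 0.33, edgeR adjusted p = 0.0485) and from 13.7 and 65.0 CPM to 919 and 893 CPM at E16.5 (4.45 ± 0.56, adjusted p = 0.0165), and its E16.5 call was lost without the monocyte-rule cells, which it helps to choose (4.82, adjusted p = 0.0642). Ly6c2 had no UMI in the E16.5 controls and was at 459 and 245 CPM in MOF cKO, a mean 86.6-fold above 3 counts over the control group. Lyz2, the lysozyme of myeloid cells, went from 1164 and 956 CPM to 2749 and 2064 CPM (1.20 ± 0.15, adjusted p = 0.00486) and from 1675 and 1219 CPM to 7066 and 6523 CPM (2.31 ± 0.25, adjusted p = 0.0129). It passed at both stages without the monocyte-rule cells too (1.12 and 2.66).

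**Figure D4:**
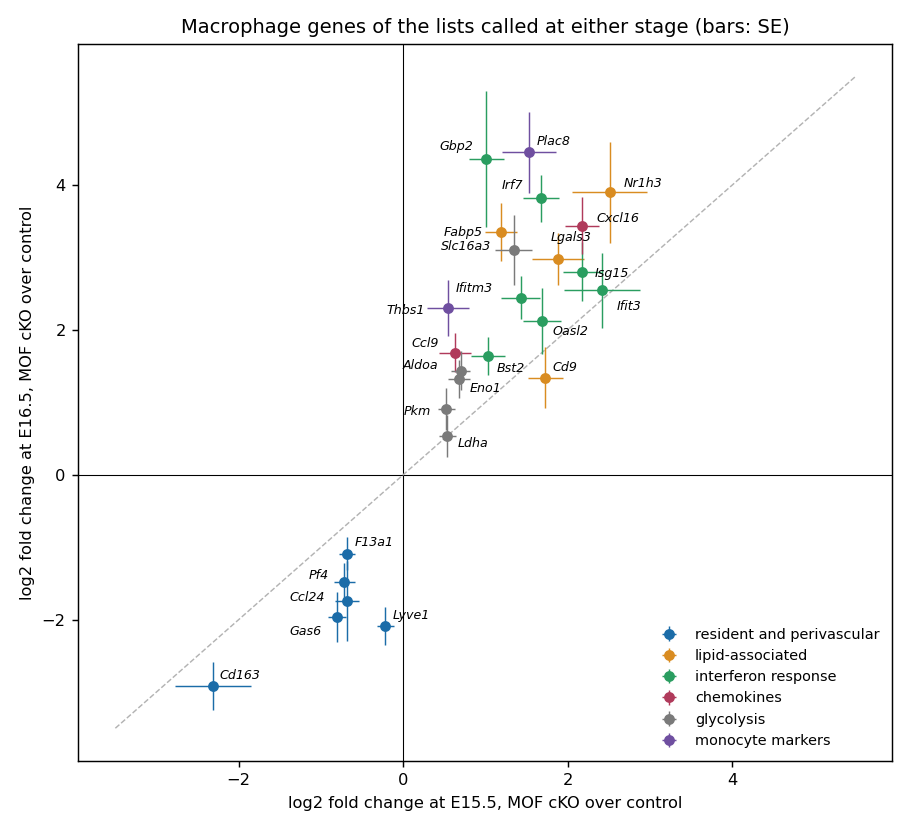
Log2 fold change of MOF cKO over control in macrophages at E15.5 (horizontal) and E16.5 (vertical) for named genes of the resident, lipid-associated, interferon, chemokine, glycolysis and monocyte lists that passed the test at either stage, with bars of 1 SE. The dashed line marks equal change. Genes with no UMI in the E16.5 controls, such as Gpnmb, Ccl5 and Ly6c2, are not drawn. Of the genes drawn, Cd163 lies lowest at -2.32 and -2.92 and Plac8 highest on the E16.5 axis at 1.53 and 4.45. Marco, of another list, is not drawn.

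Genes of glycolysis, complement, lysosomes and antigen presentation were looked at next, where 1.58% of all tested genes passed at E15.5 and 1.01% at E16.5. Of 15 glycolysis genes tested at E15.5, 5 were higher and none lower (median 0.30), namely Aldoa, Eno1, Ldha, Pkm and the lactate exporter Slc16a3, by 0.53 to 1.34 on the log2 scale. At E16.5 only Slc16a3 of 14 passed, from 6.85 and 8.96 CPM to 84.0 and 56.0 CPM (3.10 ± 0.48, edgeR adjusted p = 0.0381). Of 10 complement genes 8 were tested at E15.5, where C3 and the activator properdin (Cfp) were higher. The test at E16.5 covered 7, and factor B (Cfb) was higher. Cfb went from 10.3 and 4.48 CPM to 94.2 and 94.9 CPM (3.81 ± 0.43, adjusted p = 0.0133). Of 20 lysosome genes, the protease gene Ctsz and Psap, a precursor of sphingolipid activators, were higher at E15.5 and none passed at E16.5. For MHC class II, none of 8 genes tested passed at E15.5 and Cd74 alone of 6 at E16.5, from 140.5 and 148 CPM to 1532 and 613 CPM (2.94 ± 0.46, adjusted p = 0.0387). Cd74 did not pass without the monocyte-rule cells (1.27, adjusted p = 0.261), where it was at 128 and 79.1 CPM against 274 and 204 CPM.

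Several gene groups held no call at either stage. None of the tested genes of S phase, of G2 and M phase, of the integrated stress response or of the immediate early and AP-1 group passed the edgeR test in macrophages. The S phase median was 0.01 at E15.5 and -1.05 at E16.5, where 12 of 14 genes did not overlap between the groups (45.8% of all tested genes did not). The G2 and M phase medians were -0.10 and -0.59, with 12 of 15 genes apart at E16.5. Those of the immediate early and AP-1 group were -0.27 and -0.42, with 12 of 18 genes apart at E15.5 (45.4% of all tested genes there). Of 19 NF-kB inflammatory genes tested at E15.5, Bcl2a1b, one of a set of close paralogs whose reads may be shared, and the interleukin 1 receptor antagonist Il1rn were higher, and the same 2 of 15 passed at E16.5. Of all tested genes, 1.58% passed at E15.5 and 1.01% at E16.5. Il1rn went from 12.6 and 10.99 CPM to 44.8 and 37.7 CPM at E15.5 (1.81 ± 0.22, adjusted p = 0.00468), while the cytokine Il1b overlapped at 139 and 45.0 CPM against 218 and 88.2 CPM.

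With both stages in 1 fit, 159 of 9254 genes passed (1.72%), 121 higher (1.31%) and 38 lower (0.411%). Slc13a3, a carrier of dicarboxylates, rose by 3.88 ± 0.26 (log2, edgeR adjusted p = 2.02e-05), with 5.29 and 3.14 CPM against 70.7 and 65.0 CPM at E15.5 and 6.85 and 2.24 CPM against 56.5 and 41.2 CPM at E16.5. Fpr1, a receptor for bacterial formyl peptides, rose by 3.79 ± 0.41, the Fc receptor Fcgr4 by 1.62 ± 0.18 and the B cell and myeloid receptor Cd72 by 3.39 ± 0.64. Hif3a, a hypoxia-inducible factor subunit, fell by 1.78 ± 0.24, from 47.6 and 30.4 CPM to 8.44 and 12.6 CPM at E15.5. The count was 77 without E15.5 MOF cKO replicate 5, 82 without E15.5 control replicate 3, 98 and 85 without E16.5 control replicates 1 and 2, and 291 by DESeq2.

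The last comparison set macrophages of QPC cKO against the control at E17.5, with 1 library each, so that the differences have no replicate check and compare these libraries. Uqcrq was at 201 CPM in control and 242 CPM in QPC cKO macrophages and at 106 and 43.9 CPM in epithelial cells. Of 4198 genes that reached 50 UMIs in 1 or both libraries, 307 (7.31%) differed more than 2-fold on the CPM plus 1 scale, 170 higher (4.05%) and 137 lower (3.26%) in QPC cKO. The balance of directions turned with the settings, to 80 higher and 96 lower of 2323 genes with at least 100 UMIs and to 105 higher and 119 lower with a pseudocount of 10 CPM. The median log2 ratio was 0.15. C1qa was nearly level, at 2678 CPM (Poisson 95% interval 2581 to 2778) and 2614 CPM (2529.7 to 2701).

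Chemokines were lower in QPC cKO macrophages, where 3.26% of all genes compared were more than 2-fold lower. Of 13 on the list with enough UMIs, 11 were more than 2-fold lower and 1 higher (median log2 ratio -2.64). Ccl2, which draws monocytes through Ccr2, was at 5809.7 CPM (5666 to 5956) in the control and at 658 CPM (616 to 703) in QPC cKO. The monocyte attractants Ccl7 and Ccl12 were at 4339 and 3176 CPM against 618 and 390.1 CPM. The macrophage inflammatory proteins Ccl3 and Ccl4 were at 1905 and 4643 CPM against 305 and 649.6 CPM. The neutrophil attractants Cxcl1 and Cxcl2 were at 2630.1 and 17967 CPM against 216 and 4571 CPM. Cxcl16 went the other way, from 107 to 326 CPM.

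Chemokine levels were also lower around the macrophages. In the other non-epithelial cells Ccl2 was at 1465 CPM in the control and 213 CPM in QPC cKO, Cxcl1 at 1596 and 250.2 CPM and Cxcl2 at 1418 and 193 CPM, and in epithelial cells Ccl2 was at 997 and 41.4 CPM. Ccl12 was far lower outside the macrophages, with 1.18 and 0.263 CPM in the other non-epithelial cells. Keratinocyte markers moved the same way, where 3.26% of all genes compared in macrophages were more than 2-fold lower. Of 5 with enough UMIs, Krt1, Krt10 and Krt15 were more than 2-fold lower and none higher (median log2 ratio -1.02), and the 6 markers on the list summed to 573 and 323 CPM in macrophages and to 795 and 465 CPM in the other non-epithelial cells. The part of RNA from other cells in the chemokine values was not tested, and with 1 library per group, library and genotype cannot be told apart.

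Inflammatory genes followed the same order, where 3.26% of all genes compared were more than 2-fold lower. Of 18 NF-kB inflammatory genes 10 were more than 2-fold lower and none higher (median -1.13). The cytokine Il1a was at 708 CPM in the control and 134 CPM in QPC cKO, Tnf at 533 and 212 CPM, and the inflammasome sensor Nlrp3 at 705 and 144 CPM. Il1b, at 2877 and 1734 CPM, differed less than 2-fold. The neutrophil growth factor Csf3 was at 132 and 4.35 CPM, and Hbegf, a ligand of the EGF receptor, at 122 and 10.9 CPM. Of 9 interferon genes 3 were more than 2-fold lower, among them Isg15 at 264 and 60.9 CPM.

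Some resident and heme-handling genes were lower too, where 3.26% of all genes compared were more than 2-fold lower. Of 14 resident genes 4 were more than 2-fold lower and none higher (median -0.78), namely Ccl24 at 768 against 125 CPM, Folr2 at 265 against 89.9 CPM, the lectin Clec10a at 194 against 76.9 CPM and Cd209f. All 122 control UMIs of Cd209f came from 5 cells. Lyve1, at 855 and 668 CPM, Cd163, at 228 and 141 CPM, and Pf4, at 10361 and 6221 CPM, differed less than 2-fold. Of 10 heme and iron genes, Hmox1 and Slc48a1 were more than 2-fold lower and none higher (median -0.61). The heme oxygenase Hmox1 was at 2213 and 452 CPM. On the complement list, the anaphylatoxin receptor C5ar1 was at 1353 and 437 CPM.

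**Figure D5:**
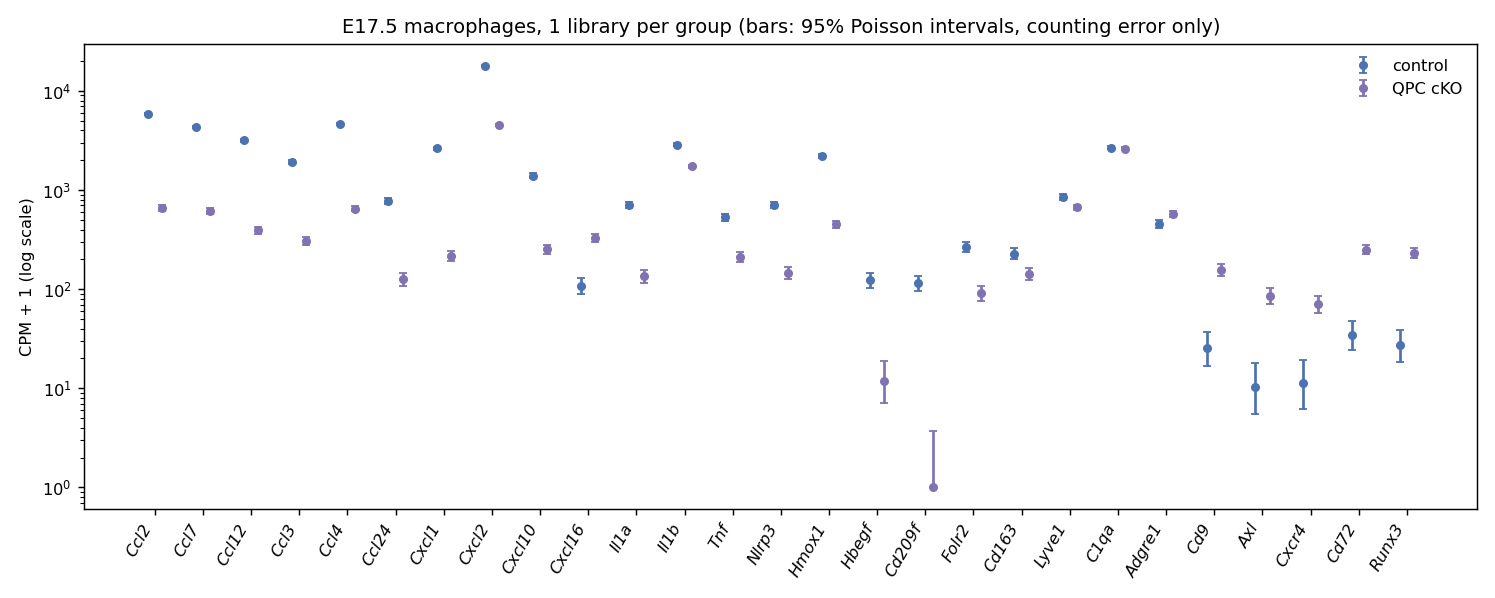
CPM plus 1 (log scale) of 27 genes in the macrophages of the E17.5 control (blue) and QPC cKO (purple) libraries, 1 library each, with Poisson 95% intervals that cover counting error only. Most chemokines and cytokines on the left are lower in QPC cKO, such as Ccl7 at 4339 against 618 CPM, C1qa and Lyve1 are close, and Cd9 to Runx3 on the right are higher.

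The genes more than 2-fold higher in QPC cKO macrophages, 4.05% of all genes compared, included regulators and surface receptors. Runx3, a transcription factor of leukocytes, was at 26.2 CPM in the control and 231 CPM in QPC cKO, and Cd72 at 33.6 and 250.1 CPM. Axl, a receptor for Gas6, was at 9.35 and 84.8 CPM, Cd9 at 24.3 and 157 CPM and the chemokine receptor Cxcr4 at 10.3 and 69.6 CPM. The activation marker Cd69 was at 4.67 and 88.5 CPM, from 3 and 26 cells. Of 8 G2 and M phase genes 5 were more than 2-fold higher, with Top2a at 50.5 and 121 CPM, while none of 12 S phase genes was past 2-fold. Single cells gave some of the widest ratios, since 99.1% of the 107 Il12b UMIs and 95.6% of the Spp1 UMIs of QPC cKO were in 1 cell. Of 8 MHC class II genes 4 were more than 2-fold higher and none lower (median 0.82). Cd74 was at 792 and 1707 CPM, with 65.9% and 29.4% of its UMIs from 1 cell, and H2-Aa at 133 and 281 CPM, with 95.1% and 52.8% from 1 cell.

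Monocyte markers were higher in QPC cKO macrophages by UMIs, although the monocyte rule held for few cells of either library. Of 4 with enough UMIs, Ccr2, Fn1 and S100a4 were more than 2-fold higher and none lower (median log2 ratio 1.23). Of all genes compared, 4.05% were more than 2-fold higher. Ccr2, the receptor of Ccl2, was at 28.04 CPM in the control and 72.5 CPM in QPC cKO, and S100a4 was at 40.2 and 224 CPM. A Ccr2 UMI was found in 9.09% of control and 32.8% of QPC cKO macrophages (median 20160 and 21579 UMIs per cell) and, at 3000 UMIs per cell, in 5.45% and 14.3%. Fibroblasts, which should lack Ccr2, held a UMI in 0.109% of cells in each library (median 19753 and 17956 UMIs). In the control 53.3% of the Ccr2 UMIs came from 1 cell.

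The ligands of Csf1r were looked at in the surrounding cells. Csf1 was at 19.1 and 17.2 CPM in the other non-epithelial cells of the E15.5 controls and at 25.5 and 20.3 CPM in MOF cKO, and at 17.504 and 13.2 CPM against 22.4 and 31.5 CPM at E16.5. Both mutant libraries were above both controls at each stage, and no test was made in these cells. At E17.5 Csf1 was at 70.1 CPM (67.7 to 72.6) in the control and at 34.1 CPM (32.9 to 35.3) in QPC cKO. Il34 was lower than Csf1 there, at 5.34 and 4.07 CPM. In epithelial cells Csf1 overlapped between the groups at both stages, at 7.89 and 6.89 CPM against 9.07 and 7.05 CPM at E15.5 and at 9.08 and 1.72 CPM against 0 and 7.498 CPM at E16.5. At E17.5 epithelial Csf1 was at 39.4 and 10.1 CPM and epithelial Il34 at 8.15 and 4.37 CPM, control first.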

How the data were processed

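Gene by cell matrices of 10 libraries were used as deposited. The authors made these UMI counts with Cell Ranger (versions 1.3.1 and 6.1.2 are named in the submitters' processing notes) on the mm10 genome, with called cells only and no normalization, and which version served which library is not given in the sources used here. Cells were kept by the limits on genes and mitochondrial UMIs that open the report, and the macrophage, monocyte, mast and fibroblast rules were applied to UMI counts. The members and gene lists were chosen with earlier results of these data known. Cells with a Scrublet score above 0.25 (0.140% to 3.22% of kept cells, 56 macrophages) were left in and removed in an alternative. Counts were summed over macrophages per library and tested with edgeR 4.0.16 (R 4.3.3; filterByExpr, TMM, quasi-likelihood), with DESeq2 1.42.0 as the alternative, each stage apart, both with stage as a term, and with an interaction. CPM are scaled to 1000000 UMIs of the summed cells. Shares were compared with exact permutation tests over libraries (scipy 1.17.1). At E17.5 no test was possible, and ratios of CPM plus 1 are given. Genes were named if they were rule markers, list members past the threshold or among the 4 most abundant of a list, or among the 10 largest called rises and falls with groups apart and a mean of at least 50 CPM; Acp5, Mmp14, Zbp1, Vim, Csf3 and Fpr1 were chosen after their values were seen where the rule does not name them. On simulated counts with 4-fold changes, edgeR recovered 95.8% of the changed genes at E15.5 and 77.4% at E16.5, with 24 and 5 false calls. Alternatives changed the member rule, limits, tool, normalization, filter and libraries. Leaving out monocyte-rule cells, fibroblast-rule cells, the keratin limit or shared barcodes, and thinning or dropping Lyz2 for the monocyte rule, were chosen after seeing the data.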

Additional observations from a re-analysis of the deposited data

How the results depend on the processing

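No gene named and called at E15.5 or at E16.5 changed direction under the alternatives run for that stage, and single genes of the fit over both stages were not rerun. The E16.5 difference in share, 2.81 points, was 2.34 with a stricter marker rule, 5.11 with a looser one and 1.01 without fibroblast-rule cells, and over both stages 1.46 points became 2.67 with the looser rule and 0.568 without fibroblast-rule cells. The E17.5 difference of -1.12 points was 0.0186 as a share of all kept cells, and -0.528 on that denominator without the keratin limit. Leaving out 1 library gave -0.502 to 0.740 points at E15.5, 2.40 to 3.21 at E16.5 and 1.15 to 1.77 over both. The 165 calls at E15.5 became 108 by DESeq2, 593 with no filter on low counts, 51 with a mitochondrial limit of 5%, and 189 to 456 without 1 library. The 59 calls at E16.5 became 103 by DESeq2, 433 with no filter, 13 without monocyte-rule cells, 212 without fibroblast-rule cells, and 0 (without MOF cKO replicate 2) to 373 without 1 library. The 159 calls over both stages became 291 by DESeq2, 633 with no filter and 77 to 175 without 1 library. The 0 calls of the difference between stages became 26 by DESeq2, 158 with no filter, 1 without doublet calls, 1 without fibroblast-rule cells and 0 to 3 without 1 library. At E17.5, 307 genes past 2-fold became 176 among genes with at least 100 UMIs. The cause of these changes was not tested. With the replicate block the E16.5 count was 132, and same-numbered samples showed no common deviation (correlation -0.0873), which 2 pairs cannot settle, and the labels do not say that a number marks a shared litter. At E15.5 the groups share no replicate number, and at E17.5 there is 1 library per group, so no block was fitted there. Of 36 named E16.5 genes, 36 were lost without MOF cKO replicate 2, and 18 of the 26 still tested without monocyte-rule cells. With 26 and 42 control macrophages at E16.5, a gene without a UMI there has no measured fold. A fold against 3 counts covers counting error only.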
